A study of Mus musculus with 18 samples.

Results

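Immediate early genes are switched on within minutes of strong synaptic input without new protein synthesis, and 10 of them, Fos, Fosb, Jun, Junb, Egr1, Arc, Nr4a1, Nr4a2, Dusp1 and Btg2, were followed in the brains of mice lacking Aldh5a1. Members were the probe sets whose only annotated symbol was one of these names. That gave 13 probe sets for 9 of the 10 genes, out of 8252 genes with a probe set of 1 symbol, and Arc, a cytoskeletal protein of active synapses, is not analysed here because no probe set carried its symbol. Aldh5a1 encodes succinate semialdehyde dehydrogenase, which completes the breakdown of the inhibitory transmitter GABA. Hippocampus, cerebellum and cortex came from 3 Aldh5a1-/- mice (KO, animals 3363, 3389 and 3403) and 3 wild-type mice (WT, animals 3396, 3405 and 3406), with 1 Affymetrix oligonucleotide array of total RNA per animal and region, 18 arrays in all. Strain, age and treatment are not given in the labels, and no probe set was assigned to Aldh5a1, so the deletion itself could not be checked on the arrays.

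In neurons, calcium entering through glutamate receptors and voltage-gated channels activates kinases that phosphorylate the factors CREB and SRF, which already sit at these genes. Fos, Fosb, Jun and Junb are subunits of the dimeric transcription factor AP-1, Egr1 is a zinc finger transcription factor, and Nr4a1 and Nr4a2 are orphan nuclear receptors. Dusp1 is a phosphatase that switches off MAP kinases, and Btg2 is an antiproliferative regulator of transcription and mRNA decay. Fos mRNA and protein are widely used as markers of recently active neurons, and the transcripts are short-lived, so their level reflects the time shortly before death.

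The deposited values are probe set signals, that is, hybridisation brightness combined over the probes of a set. They were scaled to the same trimmed mean on every array, and they compare samples for 1 probe set, not 1 probe set with another. Of the 13 probe sets, 11 covered all 9 genes and passed the filter on low values, for which a signal had to exceed the 40th percentile of its own array in 3 or more of the 18 arrays. The other 2 were a Fos probe set (161716_at), never above that percentile, with signals of 10.5 to 36.4, and an Egr1 probe set (161802_i_at), above it on 2 arrays, with signals of 8.42 to 69.4. All 18 arrays lay closest to the arrays of the region in their title, and arrays of 1 group correlated across probe sets with r of 0.955 to 0.976. Markers fitted the regions too: Gabra6, a granule cell receptor subunit, had signals of 1710 to 2480 in cerebellum, 10.9 to 32.3 in hippocampus and 13.8 to 29.7 in cortex. Tbr1, a transcription factor of forebrain excitatory neurons, had 2.36 to 9.71 in cerebellum, 362 to 532 in hippocampus and 1049 to 1487 in cortex. Values under 9.46, the 20th percentile of all signals, were raised to it before log2 was taken, and "called" below means an adjusted p under 0.05 in limma with Benjamini-Hochberg adjustment over all 8382 kept probe sets.

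Members differed between regions, and no member differed between genotypes beyond the threshold. Most members had their highest signal in cortex and their lowest in cerebellum, and Egr1 showed the widest gap, 8.90-fold lower in cerebellum than in cortex. Jun ran the other way, highest in hippocampus. Fos and Btg2 were not separated between cerebellum and hippocampus, and Dusp1 was not separated between cerebellum and cortex. Averaged over both genotypes and compared within the 6 animals, 7 of the 11 member probe sets were called between hippocampus and cortex, 1 higher and 6 lower in hippocampus, where 26.5% of all kept probe sets were called (13.5% higher and 13% lower). Between cerebellum and cortex 10 were called, 1 higher and 9 lower in cerebellum, against 56% of all kept probe sets (25.1% higher and 30.9% lower). Between cerebellum and hippocampus 9 were called, 1 higher and 8 lower in cerebellum, against 51% (23.3% higher and 27.6% lower). The members' median log2 difference was -0.37 for hippocampus minus cortex, where all kept probe sets had 0.00, -1.36 for cerebellum minus cortex, where all had -0.06, and -1.10 for cerebellum minus hippocampus, where all had -0.06. The values of the 6 arrays did not overlap for 4, 6 and 5 of the 11 probe sets in these contrasts, where 11.2%, 25.9% and 25.3% of all kept probe sets did not overlap.

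**Figure D1:**
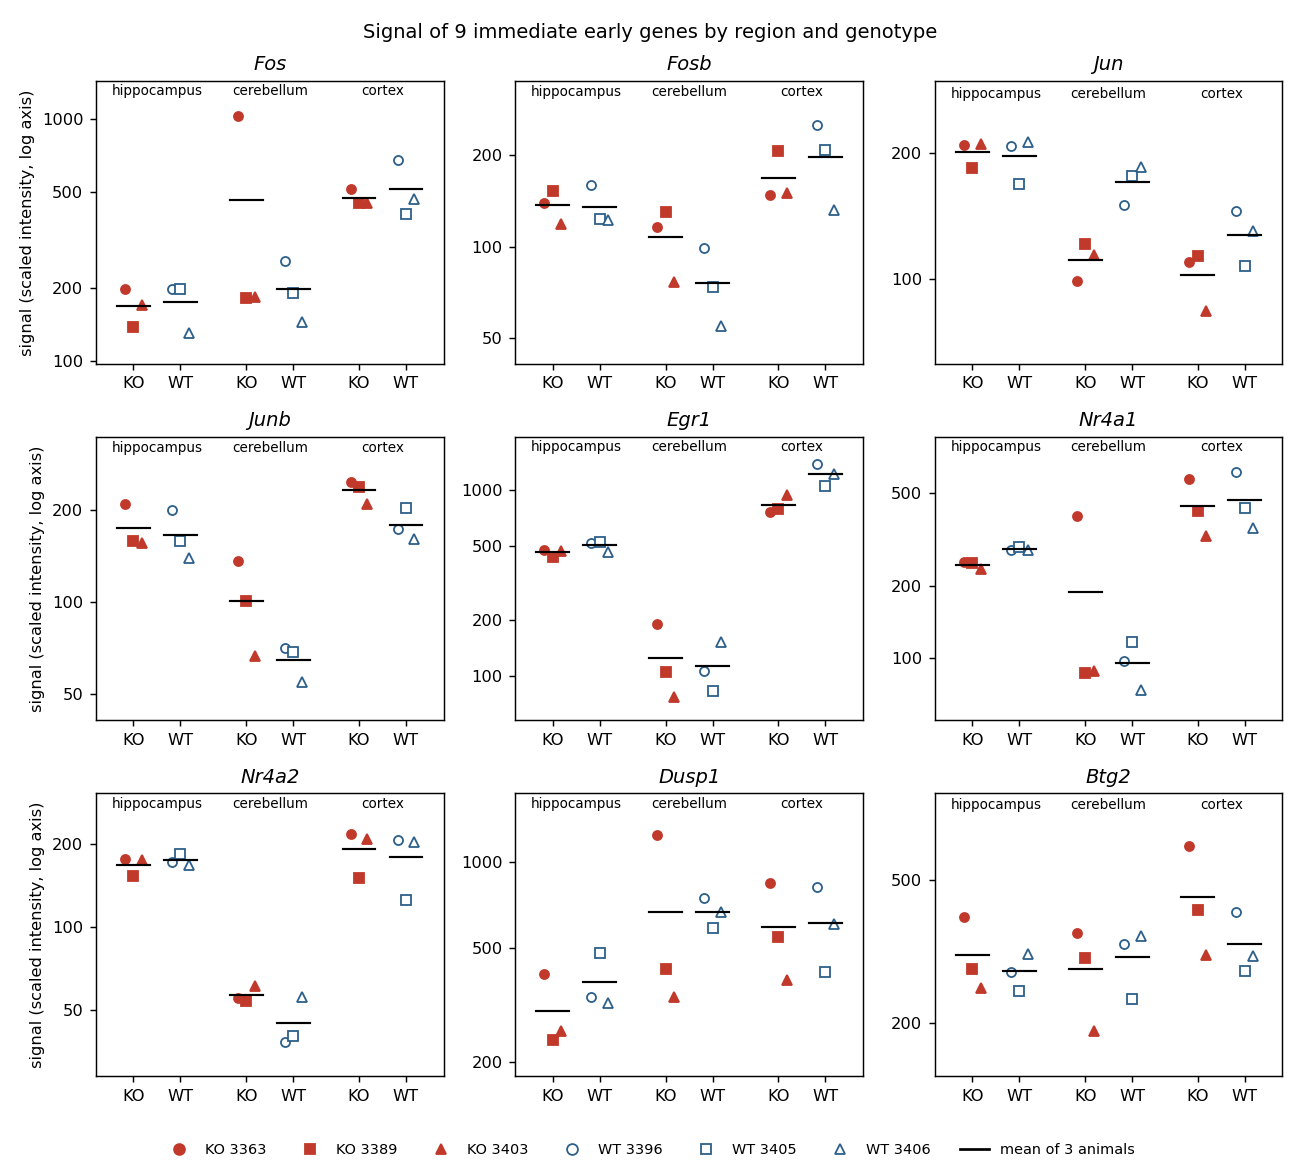
Signal of the brightest kept probe set of each of 9 genes (scaled intensity, log axis) by region and genotype, with KO left of WT; each symbol is 1 animal and the bar is the arithmetic mean of 3 animals. Egr1 separates the regions completely, with 77 to 190 in cerebellum, 435 to 528 in hippocampus and 763 to 1379 in cortex, while 1 KO cerebellum array stands at 1025 for Fos.

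Among the AP-1 subunits, Fos had signals of 130 to 199 in hippocampus (median 184), 145 to 1025 in cerebellum (median 187) and 405 to 675 in cortex (median 458). Every cortex array exceeded every hippocampus array, and a single cerebellum array lay above the rest of its region. Fos was 2.87-fold lower in hippocampus than in cortex (log2 -1.52 ± 0.25 SE, limma adjusted p = 0.000427, lower in 6 of 6 animals). It was called lower in cerebellum than in cortex as well (log2 -0.96 ± 0.25, adjusted p = 0.00434, lower in 5 of 6 animals), and that value rests partly on the high array: without it the difference was -1.32. Cerebellum and hippocampus were not separated for Fos (log2 0.56 ± 0.25, 95% interval 0.04 to 1.09, adjusted p = 0.0688), and without the high array the difference was 0.19 (adjusted p = 0.182).

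Fosb, the close relative of Fos whose truncated splice form builds up under repeated stimulation, had 119 to 160 in hippocampus, 54.8 to 130 in cerebellum and 132 to 251 in cortex. Its order was cortex, hippocampus, cerebellum, with each step called. The log2 difference was -0.40 ± 0.11 for hippocampus minus cortex (adjusted p = 0.0144), -1.02 ± 0.11 for cerebellum minus cortex (adjusted p = 1.97e-06) and -0.62 ± 0.11 for cerebellum minus hippocampus (limma adjusted p = 0.000263), each lower in 6 of 6 animals.

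Jun, the partner that binds DNA with any of the Fos proteins, had 169 to 212 in hippocampus, 98.8 to 185 in cerebellum and 83.6 to 145 in cortex. Hippocampus exceeded cortex on every array, a 1.75-fold difference (log2 0.81 ± 0.11, limma adjusted p = 0.000108, higher in 6 of 6 animals). Cerebellum lay between them, called lower than hippocampus (log2 -0.53 ± 0.11, adjusted p = 0.00115, lower in 5 of 6 animals) and called higher than cortex by a small margin (log2 0.28 ± 0.11, adjusted p = 0.0455, higher in 5 of 6 animals). That last call was lost when KO animal 3389 or 3403 or WT animal 3405 or 3406 was left out. Jun was thus the member with the opposite order of hippocampus and cortex to Fos, Fosb, Egr1, Nr4a1, Dusp1 and Btg2.

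Junb, an AP-1 subunit that restrains Jun in many settings, was read by a pair of probe sets. The brighter (102363_r_at) had 139 to 209 in hippocampus, 54.7 to 136 in cerebellum and 160 to 248 in cortex, and every cerebellum array was below every array of the other regions. It was 2.57-fold lower in cerebellum than in cortex (log2 -1.36 ± 0.11, limma adjusted p = 1.14e-07) and 2.14-fold lower than in hippocampus (log2 -1.10 ± 0.11, adjusted p = 1.22e-06). Hippocampus and cortex were not separated (log2 -0.27 ± 0.11, 95% interval -0.51 to -0.03, adjusted p = 0.0881). The second probe set (102362_i_at) gave the same calls, with 5.03 to 69.8 in cerebellum, where 2 WT arrays were under the floor of 9.46, so that its log2 difference of -2.95 ± 0.27 to cortex depends on that floor.

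Egr1, also known as Zif268, had the clearest regional order of all the members. Its signals were 435 to 528 in hippocampus (median 475), 76.8 to 190 in cerebellum (median 106) and 763 to 1379 in cortex (median 999), and no array of 1 region reached into the range of another. Hippocampus was 2.08-fold lower than cortex (log2 -1.05 ± 0.17, limma adjusted p = 0.000348), cerebellum was 8.90-fold lower than cortex (log2 -3.15 ± 0.17, adjusted p = 1.01e-09) and 4.28-fold lower than hippocampus (log2 -2.10 ± 0.17, adjusted p = 8.86e-08), each in 6 of 6 animals. Its relative Egr2, named here after its values were seen, had the same order, with mean signals of 51.8 in hippocampus, 18.7 in cerebellum and 158 in cortex, and all 3 differences were called.

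The nuclear receptors shared the low cerebellum but not the step between hippocampus and cortex. Nr4a1 had 238 to 294 in hippocampus, 72.5 to 398 in cerebellum (median 91.7) and 326 to 613 in cortex. It was 1.65-fold lower in hippocampus than in cortex (log2 -0.72 ± 0.22, limma adjusted p = 0.0271) and 3.80-fold lower in cerebellum than in cortex (log2 -1.93 ± 0.22, adjusted p = 4.77e-06), in 6 of 6 animals each. Nr4a2, needed for midbrain dopamine neurons and present in forebrain, had 153 to 184 in hippocampus, 38.4 to 61.1 in cerebellum and 126 to 217 in cortex at its brighter probe set (92248_at). Hippocampus and cortex were not separated (log2 -0.09 ± 0.12, 95% interval -0.35 to 0.18, adjusted p = 0.650), while cerebellum was 3.63-fold lower than cortex and 3.42-fold lower than hippocampus (adjusted p = 1.38e-08 and 2.46e-08), and the other Nr4a2 probe set gave the same calls.

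The regulators Dusp1 and Btg2 had flatter profiles. Dusp1 had 238 to 481 in hippocampus, 336 to 1242 in cerebellum and 387 to 845 in cortex. Cerebellum was not separated from cortex (log2 0.09 ± 0.17, 95% interval -0.28 to 0.45, adjusted p = 0.690). Hippocampus was the low region, with Dusp1 higher in cerebellum in 6 of 6 animals (log2 0.89 ± 0.17, 1.85-fold, limma adjusted p = 0.000543) and lower in hippocampus than in cortex in 5 of 6 (log2 -0.80 ± 0.17, adjusted p = 0.00301). Btg2 had 246 to 394 in hippocampus, 190 to 356 in cerebellum and 279 to 621 in cortex. Hippocampus (log2 -0.37 ± 0.09, adjusted p = 0.0089) and cerebellum (log2 -0.39 ± 0.09, adjusted p = 0.00268) were both modestly lower than cortex for Btg2, and they were not separated from each other (log2 -0.02, 95% interval -0.21 to 0.18). The Btg2 call for hippocampus was lost without WT animal 3396, with no replicate block and in WT animals only (adjusted p up to 0.322), and that for cerebellum with no replicate block and in WT animals only (adjusted p up to 0.518).

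**Figure D2:**
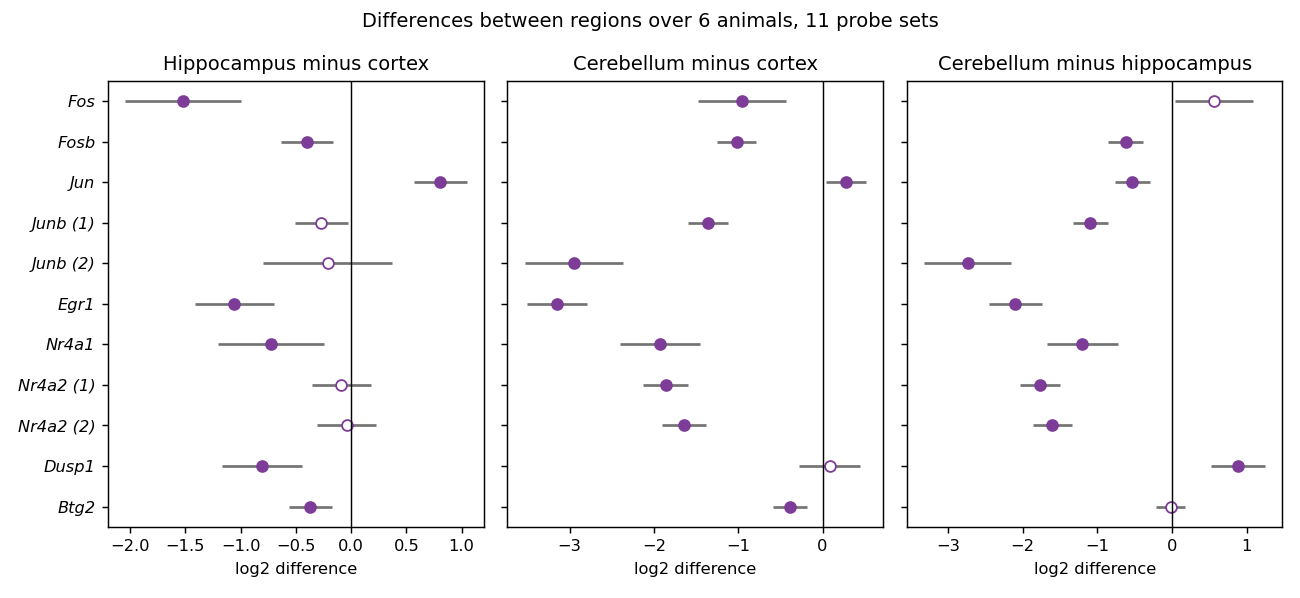
Log2 difference between regions for the 11 kept probe sets, averaged over both genotypes and compared within 6 animals; points are limma estimates, lines are 95% intervals, filled points are called (adjusted p under 0.05), and (1) and (2) number the probe sets of 1 gene with the brighter first. Egr1 lies at -3.15 for cerebellum minus cortex, and Jun is the filled point right of 0 for hippocampus minus cortex, at 0.81.

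Tissue makeup moved with these contrasts. Of 7 listed markers of forebrain excitatory neurons, 5 were kept, and their summed signal was 274 to 339 in cerebellum, 3800.5 to 4933 in hippocampus and 4548 to 5371 in cortex. Nrgn, Camk2a, Tbr1 and Neurod6 were at 2.36 to 13.3 in cerebellum, near or under the floor. Of 9 listed cerebellar neuron markers, 8 were kept, with a summed signal of 13647 to 15068 in cerebellum, 886 to 1137 in hippocampus and 1026 to 1109 in cortex. The part of these cell types in the members' differences was not tested, and in RNA of whole tissue fewer cells of a type cannot be told apart from less RNA per cell. The 3'/5' signal ratio of actin, a measure of RNA quality, was 1.64 to 1.93 in cortex, 1.09 to 1.46 in hippocampus and 1.18 to 1.39 in cerebellum. In contrasts with cortex it cannot be told apart from region. The same ratio for Gapdh overlapped (0.80 to 0.92, 0.80 to 0.90 and 0.79 to 0.84). The part of RNA quality was not tested.

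Within each genotype the region differences of some genes were of unequal size. Cerebellum minus cortex for Fos was -0.53 in KO (limma adjusted p = 0.312) and -1.38 in WT (adjusted p = 0.00011), and for Fosb it was -0.66 in KO (adjusted p = 0.00571) and -1.38 in WT (adjusted p = 0.00011). For Btg2 the same difference was -0.65 in KO (adjusted p = 0.00176) and -0.12 in WT (adjusted p = 0.518). For Jun, cerebellum minus hippocampus was -0.86 in KO (adjusted p = 0.00196) and -0.20 in WT (adjusted p = 0.373). The KO value of Fos includes the cerebellum array of animal 3363, at 1025 where KO animals 3389 and 3403 read 182 and 183. None of these gaps held up when the difference itself was tested: the genotype by region interaction was called for 0 of 11 member probe sets, against 0.0477% of all kept probe sets. At an unadjusted p under 0.05 limma gave 3 members, Fosb (limma adjusted p = 0.379), Jun (0.419) and Btg2 (0.431), where 10.7% of all kept probe sets passed.

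Between animals of 1 group, 9 of the 11 member probe sets varied more than the median kept probe set, with a median residual SD of 0.35 log2 units for the members and 0.23 for all kept probe sets. The residual SD within the 6 groups, on the log2 scale, was 0.66 for Fos, 0.59 for Nr4a1, 0.56 for Dusp1 and 0.77 for the dimmer Junb probe set, all above the 90th percentile of all kept probe sets, which was 0.49. These 4 values rest in part on the cerebellum array of KO animal 3363. Without that array the standard error in hippocampus, KO minus WT, was 0.20 in place of 0.40 for Nr4a1. It was 0.27 in place of 0.38 for Dusp1 and 0.34 in place of 0.53 for the dimmer Junb probe set. Btg2 (0.37), Fosb (0.35), Egr1 (0.34) and the brighter Junb probe set (0.28) were above the median of all. The Nr4a2 probe sets, at 0.24 and 0.17, and Jun, at 0.18, lay near or under it.

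A single array, the cerebellum of KO animal 3363, stood apart for several members. Without it, the standard error of the Fos difference between KO and WT in hippocampus was 0.22 in place of 0.44. Fos read 1025, 182 and 183 in the cerebellum of KO animals 3363, 3389 and 3403, against 260, 191 and 145 in WT animals 3396, 3405 and 3406. The first value was 5.59-fold above the median of the other 5 cerebellum arrays, and the other KO animals lay inside the WT range. Nr4a1 read 398, 86.0 and 87.3 in KO and 96.2, 116 and 72.5 in WT, so that animal 3363 was 4.56-fold above the median of the others. Dusp1 read 1242, 425 and 336 in KO and 752, 587 and 669 in WT, with animal 3363 2.12-fold above that median and the other KO animals below every WT animal. The same array was highest for both Junb probe sets (136 against 54.7 to 100.5 at the brighter, 69.8 against 5.03 to 18 at the dimmer), for Egr1 (190 against 76.8 to 151) and for Btg2 by a small margin (356 against 190 to 350).

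In all, 7 of 11 member probe sets were highest on this array, where 14.6% of all kept probe sets were, and 4 lay at least 1 log2 unit above the median of the others, where 1.03% did. Jun was the exception: its 98.8 was the lowest of the 6 cerebellum signals, against 114 to 185 on the others. Nr4a2 stayed inside the range of the other arrays, 55.2 against 38.4 to 61.1. Ordered by the deviation of this array over all 8382 kept probe sets, the dimmer Junb probe set ranked 4, Fos 5 and Nr4a1 8. The other immediate early gene Ier2, named after its values were seen, was also highest there (393 against 136 to 209). Of the 40 kept genes in a list of other activity-induced genes 9 were highest and 6 lowest on this array, with a median deviation of 0.00 log2 units, where 14.6% of all kept probe sets were highest and 13.1% lowest. Of 11 kept heat shock genes, which rise with protein damage, 0 were highest and 5 were lowest.

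The median signal of this array was 58.1, within the 53.5 to 61.9 of all cerebellum arrays, its mean correlation with the other arrays of its region was 0.964, and the 3'/5' signal ratio of Gapdh, which climbs as RNA breaks down, was 0.795 where cerebellum arrays spanned 0.788 to 0.844. The same ratio for actin was 1.39, the highest in a span that began at 1.18. The 8 kept cerebellar neuron markers summed to 14327, against 13647 to 15068 on the other 5 arrays. The 3 of 7 choroid plexus markers that were kept (Ttr, Kl and Folr1) summed to 1199, against 51.3 to 1469, so that these markers were high on this array and on others. Several other sums lay outside the range of the other 5 arrays. The 6 kept of 7 astrocyte markers summed to 6978 (7621 to 8290 on the others). Heat shock genes summed to 9042 (9349 to 11408) and 12 calcium entry and receptor genes to 3073 (3195 to 3674). Forebrain excitatory markers summed to 339 (274 to 314), nearly all from Cck (255 to 325 over the cerebellum arrays). The 3 kept of 8 striatal markers summed to 1788 (1430 to 1680), nearly all from Penk (1378 to 1744). Penk was itself called higher in cerebellum than in cortex. The part of RNA quality, of these cell types and of choroid plexus tissue in the high values was not tested. Animal 3363 was also highest for 6 of 11 member probe sets in cortex, where 17.5% of all kept probe sets were, but for 2 of 11 in hippocampus, where 23.6% were.

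**Figure D3:**
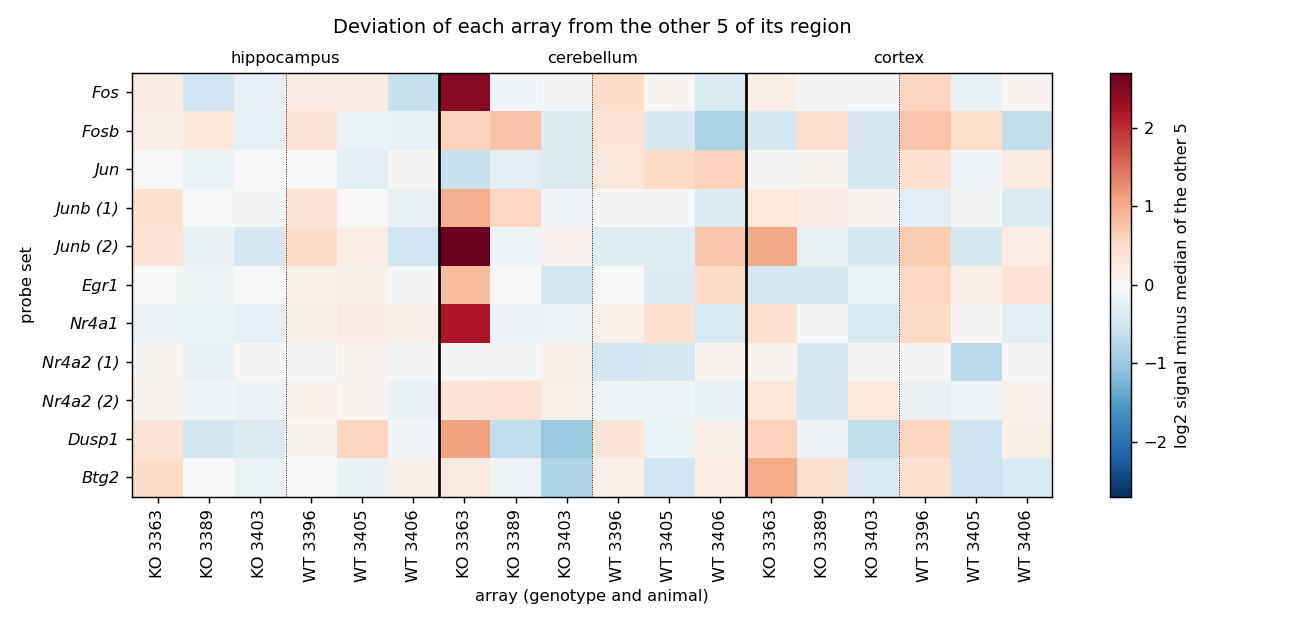
Log2 signal of each array minus the median of the other 5 arrays of its region, for the 11 kept probe sets (rows) and 18 arrays (columns, KO left of WT in each region). The cerebellum array of KO animal 3363 is the darkest column, with 2.48 for Fos, 2.19 for Nr4a1 and 2.68 for the dimmer Junb probe set, and -0.60 for Jun.

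Because Fos, Junb, Nr4a1 and Dusp1 were high together on that array and Jun was not, the 250 bases before the start of each of these genes are shown, 5′ to 3′ on the gene's strand, from RefSeq on GRCm38.p6. Capitals mark TGACG, the short form of the cAMP response element to which CREB binds, or the full element TGACGTCA, on either strand, so that CGTCA in capitals is a match on the opposite strand. The windows are chr12:85473640-85473889 (plus strand) for Fos, chr8:84978749-84978998 (minus) for Junb, chr15:101266596-101266845 (plus) for Nr4a1, chr17:26508473-26508722 (minus) for Dusp1 and chr4:95052223-95052472 (minus) for Jun.
Fos: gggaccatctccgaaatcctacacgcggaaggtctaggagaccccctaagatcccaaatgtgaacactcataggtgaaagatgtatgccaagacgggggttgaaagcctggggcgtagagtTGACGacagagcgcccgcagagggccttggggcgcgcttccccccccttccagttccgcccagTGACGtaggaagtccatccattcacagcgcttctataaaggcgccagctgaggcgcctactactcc
Junb: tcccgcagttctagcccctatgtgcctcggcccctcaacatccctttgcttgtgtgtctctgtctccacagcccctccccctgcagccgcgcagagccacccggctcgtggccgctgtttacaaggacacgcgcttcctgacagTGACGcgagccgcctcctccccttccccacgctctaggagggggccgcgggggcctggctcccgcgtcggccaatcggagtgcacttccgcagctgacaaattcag
Nr4a1: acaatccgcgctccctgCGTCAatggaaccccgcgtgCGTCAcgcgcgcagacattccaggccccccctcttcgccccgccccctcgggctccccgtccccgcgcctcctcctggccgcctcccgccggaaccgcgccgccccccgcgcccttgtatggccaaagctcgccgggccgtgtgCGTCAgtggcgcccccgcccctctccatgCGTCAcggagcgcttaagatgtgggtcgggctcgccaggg
Dusp1: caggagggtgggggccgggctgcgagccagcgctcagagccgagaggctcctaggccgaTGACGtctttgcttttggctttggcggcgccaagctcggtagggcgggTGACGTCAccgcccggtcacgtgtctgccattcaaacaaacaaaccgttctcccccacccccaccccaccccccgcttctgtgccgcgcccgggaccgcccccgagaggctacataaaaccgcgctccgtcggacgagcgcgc
Jun: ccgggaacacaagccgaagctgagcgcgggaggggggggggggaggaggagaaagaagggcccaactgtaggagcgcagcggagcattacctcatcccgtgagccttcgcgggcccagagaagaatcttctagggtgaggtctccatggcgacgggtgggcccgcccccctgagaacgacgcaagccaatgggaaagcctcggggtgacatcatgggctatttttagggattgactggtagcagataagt

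Fos held TGACG on the gene's own strand starting 129 and 66 bases before the start, and Junb held 1 match starting 106 bases before it. Nr4a1 held 4 matches, all on the opposite strand, at 233, 213, 69 and 40 bases. Dusp1 held the full TGACGTCA starting 143 bases before the start and a further TGACG at 191. The Jun window held no TGACG on either strand. Windows of Nr4a2, Fosb and Btg2 are not printed. That of Nr4a2 held 4 TGACG, with Nr4a2 inside the range of the other arrays, and that of Fosb held 1, with Fosb not highest. Btg2 held the full TGACGTCA and was highest on that array by a small margin. Any link between the matches and the values on that array was not tested. No window of Egr1 was used here. Of the 8 members with a window, 7 held TGACG, or 87.5%, against 17.8% of 32851 promoters of the same length, and 2, Dusp1 and Btg2, held TGACGTCA, against 1.55%. Every TGACGTCA also counts as a TGACG. The AP-1 site TGANTCA and the CArG box bound by SRF were found in 0 of the 8 windows, against 6.75% and 1.47% of all promoters. These letters describe the windows only: sites further from the start, or with letters that depart from the patterns, were not searched for. No binding was measured.

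No member passed the threshold between KO and WT in any region. By limma, 0 of 11 member probe sets were called in hippocampus, where 0.119% of all kept probe sets were, 0 in cerebellum, against 0.0358%, and 0 in cortex, against 0.286%. On the mean of the 3 regions, with 1 value per animal, 0 were called, against 0.179%. At an unadjusted p under 0.05 the member counts were 0 in hippocampus, 2 in cerebellum, 1 in cortex and 2 on the mean, where 8.41%, 12.1%, 10.2% and 10.1% of all kept probe sets passed. Adjusted p ranged from 0.826 to 0.987 in hippocampus, 0.141 to 0.931 in cerebellum, 0.431 to 0.989 in cortex and 0.359 to 0.895 on the mean. An exact permutation test of 3 animals against 3 cannot give a p below 0.1.

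In hippocampus the genotypes overlapped for 10 of 11 probe sets. Fos had 198, 138 and 170 in KO hippocampus (animals 3363, 3389 and 3403) and 198, 199 and 130 in WT hippocampus (3396, 3405 and 3406). Its log2 difference was -0.05 with a 95% interval of -0.98 to 0.88, so that changes of nearly 1 log2 unit in either direction lie inside it. Nr4a1 was the probe set that did not overlap, with 253, 251 and 238 in KO against 285, 294 and 284 in WT, where 17.3% of all kept probe sets did not. The log2 difference was -0.22 ± 0.40 (adjusted p = 0.904), with a standard error shared with the noisier regions, and the adjusted p was 0.419 when the 6 hippocampus arrays were fitted alone. Egr1 had 477, 435 and 473 in KO and 520, 528 and 464 in WT, and its interval was narrower, at -0.63 to 0.38.

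In cerebellum, Jun was the member that came closest to a call. Its signal was 98.8, 121 and 114 in KO cerebellum (111 ± 11.4, SD, n = 3) and 150, 176 and 185 in WT cerebellum (171 ± 18.3), so every KO animal lay below every WT animal. The log2 difference was -0.62 ± 0.15 by limma (unadjusted p = 0.000857, adjusted p = 0.141), and without the array of KO animal 3363 it was -0.53 (adjusted p = 0.316). The dimmer Nr4a2 probe set did not overlap either, with 43.8, 45.1 and 37.7 in KO and 34.2, 34.5 and 32.8 in WT (log2 0.32 ± 0.17, adjusted p = 0.473). That makes 2 of 11 without overlap, where 15.2% of all kept probe sets had none.

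Among the other cerebellar values, those of Fos, Nr4a1, Egr1 and the dimmer Junb probe set changed sign without the high array. The brighter Junb probe set read 136, 100.5 and 66.4 in KO cerebellum and 70.3, 68.6 and 54.7 in WT cerebellum, with overlapping ranges (log2 0.59 ± 0.21, limma adjusted p = 0.262), and without animal 3363 the difference was 0.35 (adjusted p = 0.593). The Fos difference was 0.75 ± 0.44 (adjusted p = 0.534) with that array and -0.08 (adjusted p = 0.932) without it. For Nr4a1 it was 0.63 with the array and -0.11 without, for Egr1 0.07 and -0.29, and for the dimmer Junb probe set 0.83 and -0.05. For Dusp1 it was -0.24 ± 0.38 with the array and -0.82 without it (adjusted p = 0.397), when the remaining KO animals, at 425 and 336, stood below the WT animals at 752, 587 and 669. Fosb kept its direction: it read 116, 130 and 76.5 in KO cerebellum and 98.7, 73.3 and 54.8 in WT cerebellum, with a difference of 0.51 ± 0.25 (adjusted p = 0.427) for all arrays and 0.44 without the array. The direction was also kept by the brighter Nr4a2 probe set (0.36 with the array and 0.38 without) and by Btg2 (-0.13 and -0.32). The members' median difference in cerebellum was 0.36, where all kept probe sets had 0.03.

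Summed signals of 8 kept oligodendrocyte markers (10 listed) were 8061 to 8633 in KO and 8926 to 10204 in WT, without overlap as for Jun, and cerebellar neuron markers overlapped (14321 to 14605 in KO, 13647 to 15068 in WT). The 5 forebrain excitatory markers were also without overlap, with 310 to 339 in KO and 274 to 282 in WT. The part of these cell types in the Jun difference was not tested.

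In cortex, Egr1 had the largest KO minus WT difference of the members. It read 763, 787 and 938 in KO cortex (829 ± 94.9, SD, n = 3) and 1379, 1059 and 1221 in WT cortex (1220 ± 160), and the highest KO animal was below the lowest WT animal. The log2 difference was -0.55 ± 0.24 (95% interval -1.06 to -0.05, limma unadjusted p = 0.0326, adjusted p = 0.431), which does not pass the threshold among 8382 probe sets. The brighter Junb probe set was higher in every KO animal, with 248, 238 and 210 in KO and 173, 203 and 160 in WT (log2 0.38 ± 0.21, adjusted p = 0.561), but the dimmer one overlapped widely (208, 102 and 87.1 in KO, against 165, 87.1 and 117 in WT) with a difference of 0.04. The 2 of 11 without overlap compare with 14.2% of all kept probe sets. Fos read 513, 450 and 448 in KO cortex and 675, 405 and 466 in WT cortex, a log2 difference of -0.10 with an interval of -1.03 to 0.83, and the genotypes overlapped. Jun averaged 102 ± 16.1 in KO cortex and 128 ± 19.0 in WT cortex (SD, n = 3 each; log2 -0.32 ± 0.15, adjusted p = 0.488).

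**Figure D4:**
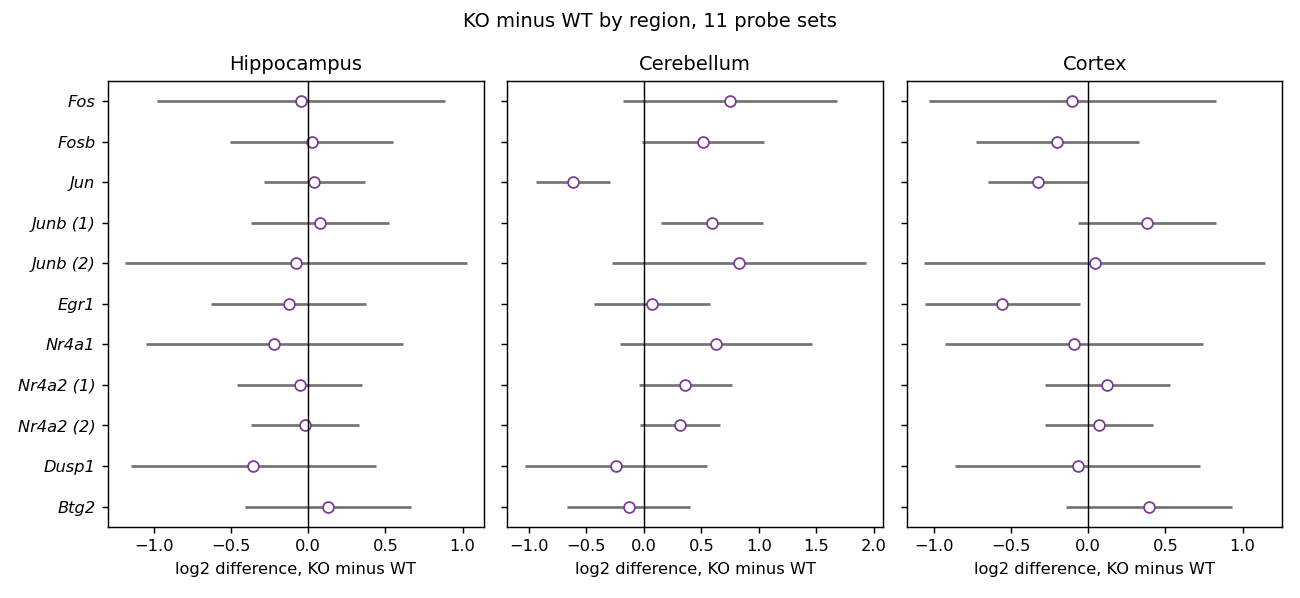
Log2 KO minus WT difference of the 11 kept probe sets in hippocampus, cerebellum and cortex; points are limma estimates from 3 KO and 3 WT arrays, lines are 95% intervals, and open points are not called. Jun in cerebellum (-0.62) and Egr1 in cortex (-0.55) have intervals that lie wholly below 0 before adjustment over all probe sets, and the brighter Junb probe set in cerebellum (0.59) has one wholly above 0.

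Other measures moved with genotype in cortex. The 8 kept oligodendrocyte markers summed to 3537 to 4502 in KO cortex and 6887 to 8935 in WT cortex. The 3 kept of 8 listed striatal markers (Drd2, Tac1 and Penk) summed to 655 to 684 in KO and 697 to 1404 in WT. Most of that sum was Penk (549 to 1212 over the cortex arrays, against 37.7 to 64.9 for Drd2). Tac1 and Penk were lower in KO cortex, Drd2 was higher, and 0 of the 3 were called. The 6 kept of 7 astrocyte markers summed to 4272 to 5055 in KO and 5082 to 5280 in WT. The 5 forebrain excitatory markers overlapped (4585 to 4841 in KO, 4548 to 5371 in WT). Their part in the Egr1 value was not tested. On the mean of the 3 regions, Jun (131 in KO and 161 in WT as geometric means, log2 -0.30 ± 0.09, limma adjusted p = 0.359) and the dimmer Nr4a2 probe set (83.4 in KO and 76.6 in WT, log2 0.12 ± 0.11, adjusted p = 0.734) did not overlap, where 15.6% of all kept probe sets did not.

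Other genes of the response were compared in the same way. Of 60 listed other activity-induced genes, 46 were on the array and 40 were kept. Of these, 0 were called between KO and WT in any region or on the mean, where 0.0358% to 0.286% of all kept probe sets were. Their median log2 difference was -0.02 in hippocampus, 0.07 in cerebellum and -0.12 in cortex, where all kept probe sets had 0.02, 0.03 and 0.00. The lowest p belonged to Sgk1, a kinase gene also driven by glucocorticoids, with 412, 457 and 343 in KO cortex and 695, 629 and 547 in WT cortex (log2 -0.63 ± 0.16, limma adjusted p = 0.125). Next came Tac1, the substance P precursor, with 44.7, 65.8 and 59.8 in KO cortex and 104, 127 and 128 in WT cortex (log2 -1.09 ± 0.28, adjusted p = 0.155). For both, every KO animal lay below every WT animal without passing the threshold. The alternative that added 16 to every signal in place of the floor brought Tac1 just past it (limma adjusted p = 0.0485). Tac1 is also 1 of the 3 kept striatal markers, which summed to 655 to 684 in KO cortex and 697 to 1404 in WT cortex. That sum includes Tac1 and was mostly Penk. The part of striatal tissue in the Tac1 difference was not tested.

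Upstream of the members, 20 of 39 listed kinases and transcription factors were kept. Between KO and WT 0 were called, against the same 0.0358% to 0.286% of all kept probe sets. Prkaca, the catalytic subunit of the cAMP-dependent kinase that phosphorylates CREB, had 484, 454 and 480 in KO cerebellum and 790, 566 and 899 in WT cerebellum (log2 -0.64 ± 0.16, limma adjusted p = 0.132), and it passed the threshold without WT animal 3405 (adjusted p = 0.0169). Mef2d, a calcium-responsive transcription factor, averaged 1800 in KO and 1552 in WT over the regions (log2 0.21 ± 0.07, adjusted p = 0.403). Of 20 listed genes for calcium entry and receptors, 12 were kept and 1 was called lower, in hippocampus, where 0.119% of all kept probe sets were called. Cacna1g, the T-type calcium channel Cav3.1, had 9.84, 13.4 and 15.05 in KO hippocampus against 33.2, 57.2 and 38.8 in WT hippocampus. Its log2 difference was -1.74 ± 0.24 (3.34-fold lower, limma adjusted p = 0.00165), at signals near the floor in KO. With 16 added to every signal in place of the floor it was -1.02, and with the 6 hippocampus arrays fitted alone the adjusted p was 0.235. In the same region oligodendrocyte markers summed to 4220 to 5397 in KO and 6446 to 9947 in WT, the 7 kept of 8 microglia markers to 1636 to 2181 in KO and 1558 to 1602 in WT, and striatal markers to 387 to 420 in KO and 452 to 498 in WT, each without overlap, and their part in the Cacna1g difference was not tested. In cerebellum, where Cacna1g was bright, KO (351 to 386) lay inside the WT range (284 to 432).

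Heat shock genes were listed beside the members as a sign of cell stress. Of 13 listed, 11 were kept and 0 were called between KO and WT, against 0.0358% to 0.286% of all kept probe sets. Their median log2 difference was -0.08 in hippocampus, -0.10 in cerebellum and -0.31 in cortex, and the lowest p were those of Hspd1, the mitochondrial chaperonin (log2 -0.35 ± 0.10, limma adjusted p = 0.209, cortex), and Hsp90aa1 (log2 -0.43 ± 0.13, adjusted p = 0.231, cortex).

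Between regions, the other activity-induced genes were called in both directions. For cerebellum minus cortex 12 were called higher and 20 lower of 40, where 25.1% of all kept probe sets were called higher and 30.9% lower. For hippocampus minus cortex 7 were called higher and 12 lower, against 13.5% and 13% of all. For cerebellum minus hippocampus 11 were called higher and 16 lower, against 23.3% and 27.6%. Ier2 was among those higher in cerebellum, with a mean signal of 211, against 75.1 in hippocampus (log2 1.42 ± 0.13, limma adjusted p = 4.32e-07). Upstream kinases and transcription factors gave 1 higher and 11 lower of 20 for cerebellum minus cortex, and calcium entry genes gave 4 higher and 6 lower of 12 in that contrast, to be read against the same 25.1% and 30.9%.

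The genes most like Fos were sought by Pearson r of log2 deviations from the group mean over 18 arrays, among 7554 kept probe sets with 1 symbol; the arrays share animals, and r is given as a description. Lrrc8a (0.946), Nr4a1 (0.900), Sstr2 (0.874), Dusp1 (0.843) and Tm7sf3 (0.815) came first. Over the 17 arrays without the cerebellum of KO animal 3363, the first were Etf1 (0.926), Egr2 (0.866), Sfxn2 (0.854), Ociad1 (0.846) and Il18 (0.844), while Nr4a1 had 0.519 and rank 361 and Dusp1 had 0.636 and rank 112. Of these 5, Egr2 is the immediate early gene. For Egr1 the first were Sparc (0.871), Aldh2 (0.841), Max (0.817), Abca1 (0.810) and Flii (0.804), and over the 17 arrays they were Elavl4 (0.855), Ddx3x (0.842), Bzw1 (0.805), Plagl1 (0.802) and Cox6b2 (0.790), with no gene in both lists. The r of Egr1 with Fos was 0.669 over 18 arrays and 0.02 over 17.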

How the data were processed

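RNA of 3 brain regions from 6 mice was measured on 18 arrays. The authors deposited linear probe set intensity, already scaled: the 2% trimmed mean was 150.07 to 150.08 on every array. The software behind it is not given in the sources used. Regions were taken from titles and descriptions, since the source label names hippocampus throughout. Replicates are separate animals per the labels.

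Of 12488 probe sets, 66 controls were left out. A single symbol was annotated for 10855 probe sets. Signals were floored at 9.46, put on the log2 scale and filtered to 8382 probe sets. KO and WT were compared with limma 3.58.1 (R 4.3.3), with 6 group means fitted over 18 arrays (12 residual degrees of freedom) and, for the mean of the regions, 1 value per animal (4). The empirical Bayes step used an intensity trend. Regions and the interaction were tested with the animal as a fixed block (8). Tests were two-sided, with Benjamini-Hochberg adjustment over all kept probe sets and a threshold of 0.05. The number of arrays limits the precision.

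The 3 arrays of an animal are paired by the animal number in the titles: their residuals correlated with a median of 0.135, against -0.0179 between animals, and lay between -0.0836 and 0.195 for single pairs. The members and lists were chosen with earlier results of these data known. All member probe sets were named, as were, from each list, the genes past the threshold (up to 4) or otherwise the 2 of lowest p, and the 5 genes most like Fos and Egr1. A list gene was read by its brightest kept probe set. Alternatives were scaling, floor, filter, variance trend, replicate block, arrays in the fit, genotype and each animal left out. Leaving out 1 cerebellum array was chosen after seeing the data. The limma fits were tested on simulated data.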

Additional observations from a re-analysis of the deposited data

How the results depend on the processing

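The number of member probe sets called between KO and WT was 0 under each of 16 alternatives in each region and 14 on the mean of regions, and the interaction gave 0 under each of 15. This includes the fits with the animal as a random replicate block (0 called in each comparison) and the interaction with no replicate block (0). Between hippocampus and cortex, where 7 members were called, leaving out 1 animal gave 4 to 7, with 4 without WT animal 3396. WT animals only also gave 4, with fewer animals in the fit, and so did no replicate block, where the cause was not tested. Between cerebellum and cortex the count was 8 to 10, and between cerebellum and hippocampus 7 to 10, with 9 each when no replicate block was used. The calls most often lost were those of Fosb and Nr4a1 for hippocampus minus cortex (6 of 17 alternatives each, among them leaving out WT animal 3396 or 3405) and of Jun for cerebellum minus cortex (8 of 17, adjusted p up to 0.532). In no alternative did a called member change sign. Over all kept probe sets the calls ranged from 1 to 22 in hippocampus (10 as reported), 0 to 121 in cerebellum (3), 3 to 34 in cortex (24) and 1 to 38 on the mean (15), with the 121 reached without WT animal 3405. Signals near the floor and 3 animals per genotype limit the precision. The hippocampal and cortical intervals for Fos, Nr4a1 and Dusp1 extend to log2 differences of -1.15 and 0.88. The kept probe sets of these genes were above the floor on every array (lowest signals 130, 72.5 and 238). Their standard errors use a spread shared over all 18 arrays. Without the cerebellum array of KO animal 3363, those in hippocampus were 0.22 in place of 0.44 for Fos, 0.20 in place of 0.40 for Nr4a1 and 0.27 in place of 0.38 for Dusp1.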

Other observations

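The labels give no sex. Eif2s3y, a Y-linked gene, had signals of 73.7 to 183 in the regions of KO animal 3363 and 71.4 to 118 in those of WT animal 3405, against at most 10.1 in the other 4 animals, so each genotype held 1 such animal. In cerebellum, WT animal 3405 read 191 for Fos, 116 for Nr4a1 and 587 for Dusp1, where KO animal 3363 read 1025, 398 and 1242. WT animal 3405 was inside the range of the other WT animals for Fos, above it for Nr4a1 and below it for Dusp1. WT animal 3396 was highest of the 6 cortex arrays for 5 of 11 member probe sets, where 14.6% of all kept probe sets were. Its median deviation was 0.55 log2 units above the other 5, and KO animal 3403 had the lowest median in cortex, -0.40. The hippocampus array of WT animal 3405 was highest for 5 of 11 and lowest for 2, where 15% of all kept probe sets were highest. High counts were thus not confined to KO animal 3363. On these WT arrays 0 members lay at least 1 log2 unit above the median of the others, against 4 on the cerebellum array of KO animal 3363.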
